A study of Rattus norvegicus with 113 samples.

Results

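Disease-associated microglia genes are a set of 10 transcripts, Spp1, Clec7a, Gpnmb, Lpl, Apoe, Trem2, Tyrobp, Itgax, Cst7 and Lgals3, that were followed here from 24 hr to 12 months after traumatic brain injury (TBI) in the rat. Members were found by joining the RefSeq identifier of each probe to a RefSeq gene table. A probe was found for 9 of the 10 genes, among 16691 genes that could be named on the arrays. Itgax, the integrin subunit known as CD11c, had no probe that could be named and has no value below. The larger of the 2 array designs carried 11 probes of the members and the smaller design 9.

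Messenger RNA of hippocampus and of cortex near the injury was measured on 113 one-color Agilent arrays, each holding a single tissue sample, in 29 groups. The animals were adult male Sprague-Dawley rats (no other strain or allele is given in the labels). TBI rats received a parasagittal fluid percussion injury under isoflurane, which the sample labels call moderate and the methods call severe. Sham-injured rats had the same anesthesia, scalp incision and skull opening without the pressure pulse, and naive rats had no anesthesia and no handling, so that naive and sham differ by surgery and anesthesia together. Each tissue was sampled at 5 intervals, 24 hr and 2 weeks after injury and then 3, 6 and 12 months, with 4 arrays per group. The hippocampus at 24 hr was the exception, for which there were 3 TBI and 2 sham arrays and none of naive rats. Hippocampus at 24 hr and 3 months was hybridized to the smaller design, and levels there are not set against levels of the larger design. By the animal numbers deposited with the arrays, hippocampus and cortex came from the same rats at 2 weeks and 6 months, and in the naive group at 12 months. Elsewhere the numbers of same replicates did not match, which does not settle whether the rats differed. The methods state that both tissues of 4 naive, 4 sham and 4 TBI rats were used per interval.

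As background, microglia are the resident macrophages of the brain. Around amyloid plaques, in demyelination and in other degenerative settings a portion of them is known to raise this set of genes. TREM2 is a surface receptor for lipids and lipoproteins, and it signals through its adaptor TYROBP. The other members include a secreted matrix ligand (Spp1), a galectin (Lgals3), 2 surface glycoproteins (Clec7a and Gpnmb), genes of lipid transport and uptake (Apoe and Lpl) and an inhibitor of lysosomal proteases (Cst7). Macrophages that enter injured brain can express many of the same genes. Apoe is also abundant in astrocytes, and Lpl in some neurons, so that whole-tissue RNA does not assign a level to a cell type. A higher level in whole tissue may reflect more cells of a type or more RNA per cell, and arrays of bulk tissue cannot tell these apart.

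Upstream sequences are shown for Gpnmb, Spp1, Clec7a and Trem2, because these members were called higher in TBI in at least 1 comparison below and encode a glycoprotein, a ligand and 2 receptors. RefSeq on the GRCr8 assembly gave a promoter for 7 of the 10 genes. Each line gives the 250 bases before the annotated start on the strand of the gene, at chr4:79340878-79341127 (plus strand) for Gpnmb, chr14:5619805-5620054 (minus) for Spp1, chr4:164599828-164600077 (minus) for Clec7a and chr9:20151780-20152029 (minus) for Trem2. Capitals mark an AP-1 match (TGANTCA) or an M-box match (TCANNTGA), and both strands were searched.
Gpnmb: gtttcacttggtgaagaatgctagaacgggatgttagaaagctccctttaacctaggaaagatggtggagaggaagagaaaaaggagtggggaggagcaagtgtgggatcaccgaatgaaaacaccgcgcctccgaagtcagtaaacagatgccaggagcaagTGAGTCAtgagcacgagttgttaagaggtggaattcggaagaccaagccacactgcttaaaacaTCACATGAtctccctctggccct
Spp1: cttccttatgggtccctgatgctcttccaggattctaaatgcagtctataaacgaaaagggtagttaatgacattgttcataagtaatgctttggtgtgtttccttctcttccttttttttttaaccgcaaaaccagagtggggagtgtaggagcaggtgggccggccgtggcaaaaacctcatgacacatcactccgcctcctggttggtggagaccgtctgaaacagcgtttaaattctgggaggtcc
Clec7a: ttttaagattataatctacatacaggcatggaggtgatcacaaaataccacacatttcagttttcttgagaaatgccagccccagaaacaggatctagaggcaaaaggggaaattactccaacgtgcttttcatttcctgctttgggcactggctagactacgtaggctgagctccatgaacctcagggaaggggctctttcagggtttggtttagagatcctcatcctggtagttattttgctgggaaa
Trem2: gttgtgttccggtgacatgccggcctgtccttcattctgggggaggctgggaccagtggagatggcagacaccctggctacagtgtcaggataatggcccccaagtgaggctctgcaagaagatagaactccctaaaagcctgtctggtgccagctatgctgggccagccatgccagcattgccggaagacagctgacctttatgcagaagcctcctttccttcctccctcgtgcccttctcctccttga
The Gpnmb window held an AP-1 match whose first base lies 87 bases before the start and an M-box match 23 bases before it. No match of either kind was in the printed Spp1, Clec7a or Trem2 window. Over all 33469 promoters of the same length, 6.34% held the AP-1 letters and 6.65% the M-box letters. A PU.1 element written as GAGGAAGT was in none of the members' windows and in 2.04% of all. Of the promoters not printed, Itgax held an AP-1 match 56 bases before its start and Cst7 an M-box match 215 bases before. The motifs were chosen after the sequences had been read, and a match of letters is no evidence of binding.

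A level is given below as log2 of the processed signal minus the median of its array, so that 0 is the median probe of that array, and levels of different genes are not compared. Between 41.2% and 93.0% of probes per array (median 56.0%) were well above background, no spot was saturated, and no 2 arrays held identical values. One array stood apart before any comparison. Replicate 3 of the cortex sham group at 2 weeks correlated at only 0.519 with the mean of its group, against 0.932 for the next lowest array and 0.989 in the median. Its raw median was 10.8 on the log2 scale, against 4.93 to 7.50 in all others, and 93.0% of its probes were well above background. Calls on cortex at 2 weeks are given with and without that array. The next lowest array was naive replicate 4 of the cortex at 2 weeks. It had the highest raw median of the others (7.50) and was kept in the main fits. Microglia and macrophage markers (Aif1, Itgam, Ptprc, Cd14, C1qa, C1qb, C1qc and Laptm5) were measured in both tissues, and at least 6 of the 8 were well above background in every array. The same slide carried TBI and sham arrays of hippocampus from 2 weeks, from 3 and from 12 months, and those of cortex from 3 and from 12 months. Elsewhere the 2 groups were on separate slides, and an effect of slide and one of injury cannot be told apart there.

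Members that passed the test were all higher in TBI, and with the settings used throughout they did so at 24 hr in the hippocampus and at 2 weeks in both tissues. Differences were smaller at 3 and 6 months, and no member passed then or at 12 months. A gene was tested when all TBI arrays or all sham arrays held it well above background, and it was called at an adjusted p under 0.05 (limma, Benjamini-Hochberg over all tested probes). In the hippocampus, 4 of 8 tested members were called higher in TBI than in sham at 24 hr, where 5.55% of all tested probes were called higher. At 2 weeks there were 5 of 8, against 1.03% of all probes. No member was called at 3 months (6 tested, 0.0% of all probes called higher), 6 months (7 tested, 0.0134%) or 12 months (7 tested, 0.0%). At an unadjusted p under 0.05 there were 2 higher and 1 lower at 3 months, 4 higher at 6 months and 1 lower at 12 months. All TBI arrays lay above all sham arrays for 5 of 8 members at 24 hr, with 3 arrays against 2, and for 5 of 8 at 2 weeks, where 22.8% and 2.54% of all probes did. They lay below all sham arrays for 2 of 8 at 24 hr (Apoe and Lpl) and for 0 of 8 at 2 weeks, where 27% and 14.7% of all probes did. Spp1 and Cst7 at 24 hr and Clec7a at 2 weeks passed the filter through the TBI arrays alone. Their part in these counts is not independent of the filter. The count at 2 weeks rested on few arrays. Leaving out TBI replicate 3 or 4 or sham replicate 2 or 3 left 0 members called, and leaving out TBI replicate 1 or sham replicate 4 left 1, whereas 7 were called without TBI replicate 2. It was also 0 with naive arrays out of the fit, and 0 at both intervals without the filter on dim probes. At 24 hr the count of 4 became 2 without TBI replicate 2 or 3 and 1 without sham replicate 1.

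Cortical counts depended on the array that stood apart. At 24 hr none of 9 tested members passed the adjusted threshold, where 0.213% of all probes were called higher, although 7 of 9 had an unadjusted p under 0.05. That count rested on the settings, since 7 members were called higher there without the filter on dim probes and 7 with normexp background correction. At 2 weeks 1 of 8 was called with all arrays (0.00848% of all probes) and 6 of 8 without sham replicate 3 (2.13%). None was called at 3 months (7 tested, 0.0%), 6 months (8 tested, 0.0724%) or 12 months (7 tested, 0.0%), and at an unadjusted p under 0.05 there were 4, 6 and 0 members higher. Clec7a and Cst7 at 24 hr, and Spp1 and Clec7a at 2 weeks, 3 and 6 months, passed the filter through the TBI arrays alone. Their part in the cortical counts of this paragraph is not independent of the filter. Spp1 was the 1 member called at 2 weeks with all arrays. A second rule, the 1.4-fold rule below, took genes that were 1.4-fold or more apart with an unadjusted p under 0.05. By it 7 members were higher in TBI in the cortex at 24 hr, where 9.05% of all probes were, and 6 at 2 weeks, with all arrays (4.02%) or without sham replicate 3 (4.99%). The count was 4 after 3 months (1.29%), 6 after 6 months (3.35%) and 0 after 12 months (0.135%). In the hippocampus 5 members were higher by this rule at 24 hr (11.2%) and 6 at 2 weeks (2.71%), followed by 1 (0.429%), 4 (1.88%) and 0 (1.48%) at the later intervals. In the cortex at 24 hr the count of called members rose from 0 to 3 without TBI replicate 3, and from 0 to 1 without TBI replicate 4 at 3 months and without TBI replicate 1 at 6 months.

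**Figure D1:**
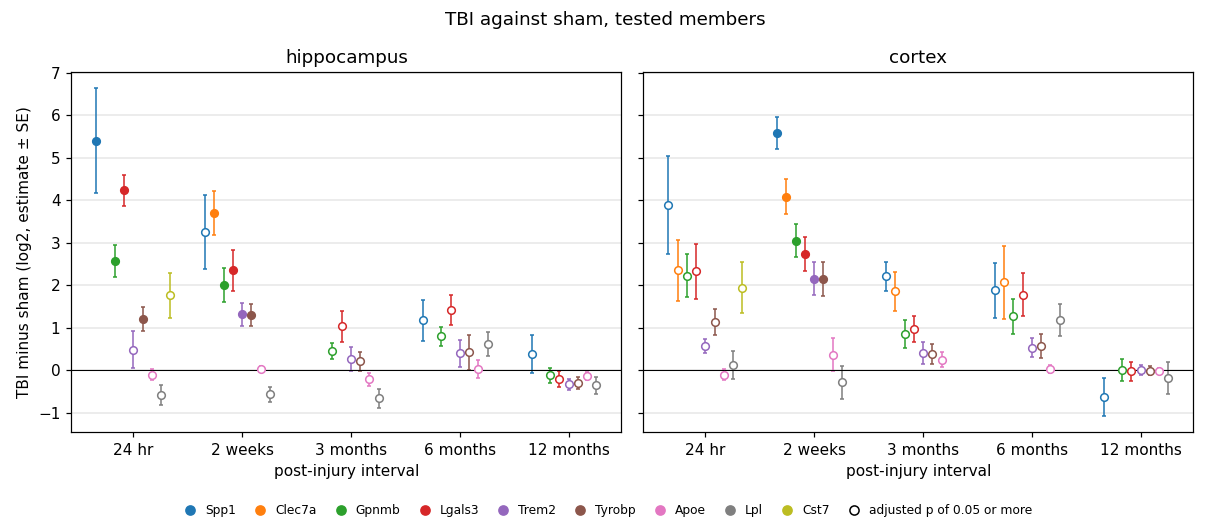
TBI minus sham on the log2 scale for each tested member by post-injury interval, hippocampus on the left and cortex on the right, with bars of 1 standard error from limma and open symbols for an adjusted p of 0.05 or more. The cortex at 2 weeks is drawn without sham replicate 3. Spp1, Clec7a, Gpnmb and Lgals3 reach the highest values at 24 hr and 2 weeks, and the tested members lie between -0.62 and 0.39 at 12 months.

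Spp1 encodes osteopontin, a secreted matrix protein that binds integrins and CD44. In the hippocampus at 24 hr its level was 7.47, 6.59 and 5.48 in the TBI arrays and -1.04 and 3.27 in the sham arrays. All TBI arrays lay above both sham arrays, but the sham arrays were far apart, and the lower of them was not well above background. The difference was 5.40 ± 1.23 (estimate ± SE, log2; adjusted p = 0.0388). At 2 weeks the TBI arrays held 1.85, -0.54, 4.35 and 3.32 and the sham arrays -1.50, -0.44, -1.15 and -0.89. TBI replicate 2 lay within the sham range, and the difference of 3.24 ± 0.87 did not pass (adjusted p = 0.0664). The cortex gave the clearest separation. At 2 weeks TBI arrays held 3.60, 4.46, 4.54 and 5.23 against -1.63, -1.09, -0.42 and -0.65 in sham, a difference of 5.40 ± 0.46 (adjusted p = 0.000963), and Spp1 was the member called with sham replicate 3 in the fit. Without that replicate no sham array was above background, and the level was at least 30.1-fold higher in TBI.

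Cortical Spp1 at 24 hr was 7.41, 5.48, 4.30 and 8.23 in TBI and 0.77, 4.60, -0.40 and 4.86 in sham. Sham replicates 2 and 4 were high and overlapped the TBI range, and the difference of 3.89 ± 1.15 had an adjusted p of 0.10. By 3 months the cortical TBI arrays had 0.69, 1.69, -0.20 and -0.46 and were all above background, whereas no sham array was (-1.60, -2.01, -1.81 and -1.72). The groups did not overlap, TBI was at least 2.49-fold higher, and the adjusted p was 0.291. At 6 months TBI spread from 0.32 to 3.86 and sham from -1.13 to 0.69. Hippocampal Spp1 at 6 months was 0.78, 0.88, 0.87 and 0.05 in TBI and -0.64, 0.04, -1.07 and -0.47 in sham, without overlap, with a difference of 1.18 ± 0.48 and an adjusted p that rounded to 1. At 12 months the differences were 0.39 ± 0.44 in hippocampus and -0.62 ± 0.45 in cortex, with overlapping arrays in both.

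Lgals3 encodes galectin-3, a lectin that binds sugars on phagocytosed material and damaged lysosomes. Its hippocampal level at 24 hr was 7.42, 6.97 and 6.46 in TBI and 2.27 and 3.18 in sham. This was an 18.8-fold difference (4.23 ± 0.37, adjusted p = 0.00369), with the smallest adjusted p of the members in that comparison. At 2 weeks the hippocampal TBI arrays held 3.51, 2.80, 5.56 and 4.50 and the sham arrays 1.95, 1.16, 1.90 and 1.95, again without overlap (2.35 ± 0.48, adjusted p = 0.0382). Levels at 6 months were 2.67, 3.49, 3.82 and 3.87 in TBI against 2.56, 1.81, 1.25 and 2.56 in sham. The groups did not overlap, and the difference of 1.42 ± 0.35 had an unadjusted p of 0.000521 and an adjusted p of 0.533. In the cortex, Lgals3 was 7.54, 6.08, 5.43 and 7.86 in TBI and 3.07, 5.75, 3.27 and 5.51 in sham at 24 hr (2.33 ± 0.66, adjusted p = 0.0925). At 2 weeks cortical TBI arrays held 5.19, 6.46, 5.36 and 5.70, and sham arrays 2.96, 2.73 and 3.13 apart from -5.10 in replicate 3. Without that replicate the difference was 2.74 ± 0.40 (adjusted p = 4.39e-07) and with it 4.75 ± 1.49 (adjusted p = 0.502). At 6 months 3 of the 4 cortical TBI arrays, at 4.93 to 6.04, were above every sham array (2.80 to 3.52), and TBI replicate 1 at 2.99 was within the sham range.

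Clec7a encodes dectin-1, a pattern receptor that signals through SYK. On the smaller design its probe was not well above background in any of the 17 arrays, so that the hippocampus at 24 hr and 3 months holds no measured Clec7a level. At 2 weeks all hippocampal TBI arrays were above background, at 1.31, -0.18, 2.30 and 2.43, and no sham array was (-2.59, -2.61, -1.81 and -1.94). The level was at least 7.94-fold higher in TBI (adjusted p = 0.0238). In 3 of 4 hippocampal TBI arrays at 6 months Clec7a was still above background (0.65, 0.83 and 0.87, with -1.90 in replicate 1) and in no sham array (-1.96, -2.98, -2.87 and -2.68), a comparison that the filter left untested. Cortical levels at 24 hr were 3.29, 2.23, 1.33 and 3.56 in TBI and -1.10, 1.36, -1.31 and 2.04 in sham, so that sham replicates 2 and 4 again overlapped TBI (2.36 ± 0.72, adjusted p = 0.107). At 2 weeks the cortex held 2.16, 4.13, 2.66 and 3.47 in TBI and -2.02, 0.04, -5.07 and -0.94 in sham. The difference was 5.11 ± 0.92 (adjusted p = 0.0924) with all arrays and 4.08 ± 0.41 (adjusted p = 1.93e-12) without sham replicate 3. At 3 months Clec7a was above background in all 4 cortical TBI arrays (-0.04, 1.80, -0.71 and -0.85) and in none of sham (-1.13, -2.05, -2.22 and -1.82). TBI was at least 1.91-fold higher, with an adjusted p of 0.841.

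Gpnmb encodes a transmembrane glycoprotein of lysosomes and phagosomes and was well above background in every array. At 24 hr the hippocampus had 6.93, 6.28 and 5.71 in TBI and 3.42 and 4.06 in sham (2.57 ± 0.38, 5.92-fold, adjusted p = 0.0117). At 2 weeks it had 5.10, 3.92, 6.22 and 5.97 in TBI and 2.90, 3.32, 3.41 and 3.53 in sham (2.01 ± 0.40, adjusted p = 0.0351). Neither comparison overlapped. The 6-month hippocampal arrays were still separate, at 3.90, 4.38, 4.49 and 4.59 in TBI and 3.70, 3.34, 3.55 and 3.57 in sham (0.80 ± 0.22, adjusted p = 0.661). Cortical Gpnmb at 24 hr was 6.93, 6.19, 5.86 and 7.40 in TBI and 3.25, 5.24, 3.48 and 5.53 in sham, without overlap (2.22 ± 0.50, adjusted p = 0.071). In the cortex at 2 weeks it was 5.81, 7.29, 6.06 and 6.55 in TBI and 3.40, 3.42 and 3.31 in sham apart from 0.19 in replicate 3, a difference of 3.05 ± 0.40 without that replicate (adjusted p = 1.68e-08) and of 3.85 ± 0.75 with it (adjusted p = 0.131). At 3 and 6 months TBI and sham overlapped in the cortex. By 12 months the differences were -0.12 ± 0.17 in hippocampus and 0.00 ± 0.26 in cortex.

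**Figure D2:**
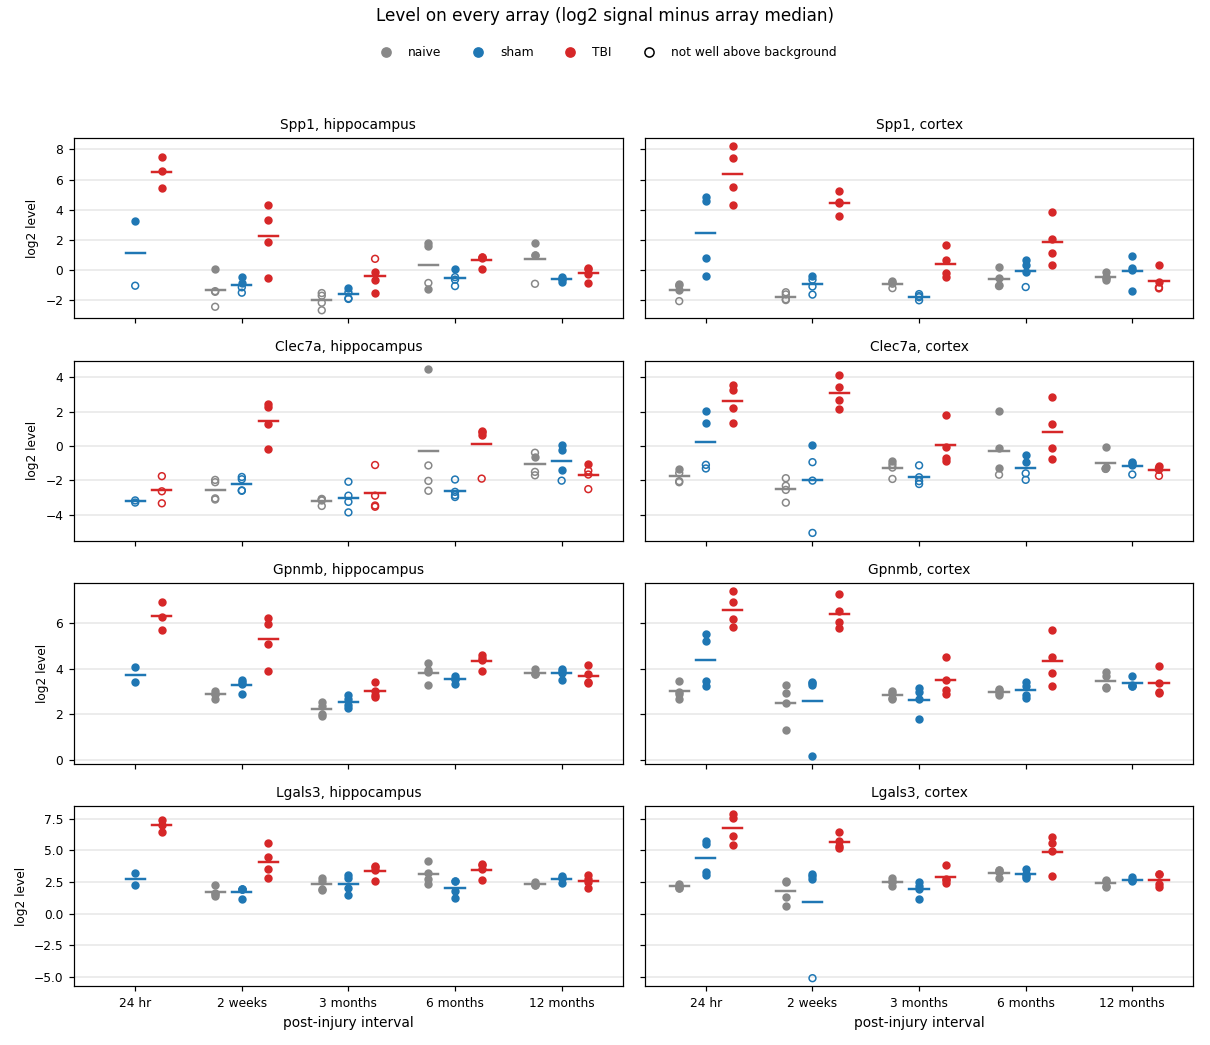
Levels of Spp1, Clec7a, Gpnmb and Lgals3 (log2 relative to the array median) in every naive, sham and TBI array by post-injury interval, with hippocampus and cortex in separate panels and open symbols for spots not well above background. Most TBI arrays lie above sham at 24 hr and 2 weeks, apart from hippocampal Clec7a at 24 hr, which is above background in no array. The highest Clec7a array is a naive hippocampal array at 6 months (4.51). Cortical sham arrays split into a high and a low pair at 24 hr, and the 3 conditions overlap at 12 months.

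Trem2 and its adaptor Tyrobp were detected in every array and moved less than the ligands and lectins. At the earliest interval the adaptor passed the test in the hippocampus and the receptor did not. At 24 hr Tyrobp was 8.03, 7.61 and 7.33 in TBI and 6.11 and 6.77 in sham (1.21 ± 0.28, adjusted p = 0.0395), whereas Trem2 was 5.34, 4.95 and 4.91 in TBI and 5.34 and 3.81 in sham (0.49 ± 0.43, adjusted p = 0.485). Whether these 2 differences differ was not tested. At 2 weeks both were called in the hippocampus. Trem2 held 5.88, 5.22, 6.60 and 6.65 in TBI and 4.88, 4.48, 4.99 and 4.71 in sham (1.32 ± 0.27, 2.50-fold, adjusted p = 0.0382). Tyrobp held 6.90, 6.40, 7.63 and 7.71 in TBI and 5.78, 5.59, 6.10 and 6.00 in sham (1.30 ± 0.26, 2.45-fold, adjusted p = 0.0369). All TBI arrays were above all sham arrays for both genes.

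Cortical Trem2 at 24 hr was 5.26 to 5.35 in TBI and 4.36 to 5.04 in sham (0.56 ± 0.16, adjusted p = 0.0976), and the naive arrays of 4.98 to 5.54 lay around the TBI level. At 2 weeks it was 7.3, 7.0, 6.78 and 7.47 in TBI and 5.24, 4.79 and 4.90 in sham apart from 1.66 in replicate 3. Tyrobp was 8.48, 8.30, 7.96 and 8.66 in TBI and 6.29, 5.99 and 6.31 in sham apart from 1.44 in replicate 3. Without replicate 3 both genes were 4.46-fold higher in TBI, with differences of 2.16 ± 0.39 (adjusted p = 5.39e-05) and 2.16 ± 0.40 (adjusted p = 8.52e-05). With all arrays they were 2.99 ± 0.74 (adjusted p = 0.283) and 3.34 ± 0.97 (adjusted p = 0.449). At 6 months the hippocampal TBI arrays of Trem2 (5.61 to 5.86) and Tyrobp (6.44 to 6.98) lay just above all sham arrays (5.10 to 5.60 and 6.26 to 6.42), with differences of 0.40 ± 0.31 and 0.42 ± 0.41 and an adjusted p of 1 for both. At 12 months hippocampal Trem2 was 5.23 to 5.56 in TBI and 5.49 to 5.90 in sham, the 1 member under the unadjusted threshold there (-0.33 ± 0.14, adjusted p = 0.316), and cortical TBI minus sham was 0.01 for Trem2 and -0.01 for Tyrobp.

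**Figure D3:**
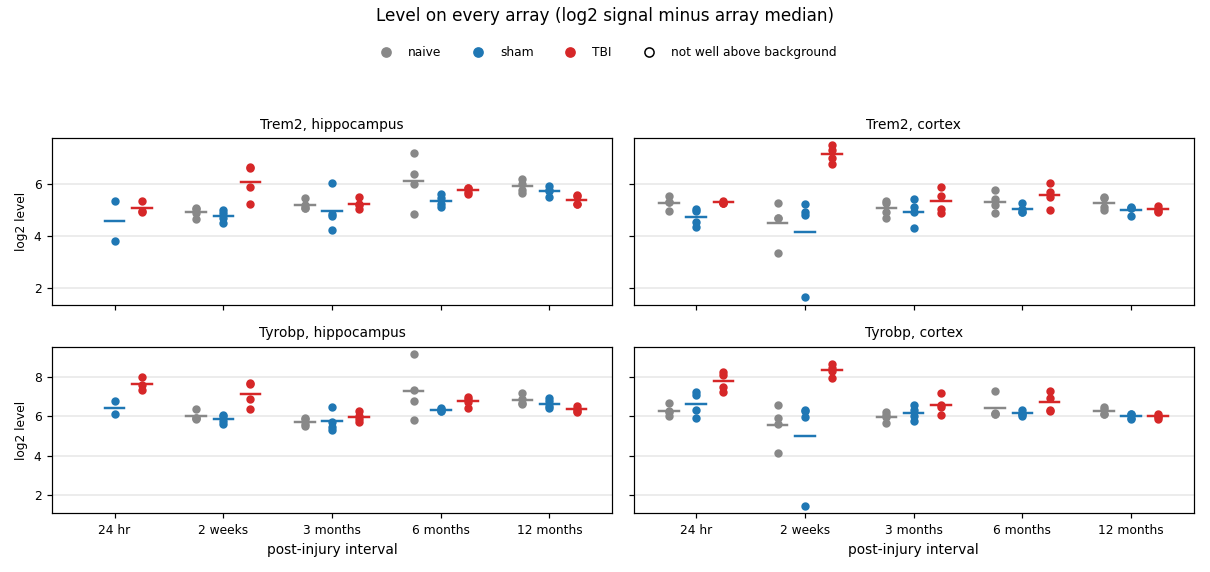
Levels of Trem2 and Tyrobp (log2 relative to the array median) in every array by post-injury interval, for hippocampus and cortex. Cortical TBI arrays at 2 weeks are 6.78 or higher for Trem2 and 7.96 or higher for Tyrobp, above every other cortical array for Trem2, and hippocampal naive replicate 3 at 6 months is the highest of both genes among hippocampal arrays of the larger design.

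Apoe and Lpl, the 2 lipid genes, did not follow the others. Cst7 was higher on average in TBI at 24 hr, without passing against sham, and was not above background in most later arrays. Apoe encodes the main apolipoprotein of the brain and was among the brightest probes in every array. Its hippocampal level at 2 weeks was 11.61, 11.61, 11.62 and 11.67 in TBI and 11.56, 11.53, 11.70 and 11.61 in sham, a difference of 0.03 ± 0.06 (adjusted p = 0.796). Cortical Apoe at 2 weeks was 12.00 to 12.10 in TBI and 11.63 to 11.80 in sham apart from 6.23 in replicate 3. Without that replicate the arrays did not overlap, but the difference of 0.37 ± 0.39 did not pass (adjusted p = 1), and with all arrays it was 1.73 ± 1.05 (adjusted p = 0.502). In the fit without replicate 3 limma drew nearly 1 spread from all probes (84.3 prior degrees of freedom, against 3.5 with all arrays), and the 8 tested members had standard errors of 0.38 to 0.41. The very small adjusted p-values of the members called in that fit rest on the same spread and are not their own replicate error. Astrocyte markers lay higher in the same TBI arrays, where the mean level of 8 of them was 7.39 to 7.56 against 6.99 to 7.14 in sham replicates 1, 2 and 4. None of the 8 was called, with or without replicate 3, and 2 were higher by the 1.4-fold rule. Their part in the Apoe level was not tested. At 24 hr cortical Apoe was 11.10 to 11.62 in TBI and 11.34 to 11.58 in sham, both below the naive arrays of 11.88 to 12.18.

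Lpl encodes lipoprotein lipase, which frees fatty acids from lipoproteins. Hippocampal Lpl at 2 weeks was 3.41, 3.78, 2.94 and 2.84 in TBI and 3.63, 3.94, 3.81 and 3.84 in sham, a difference of -0.56 ± 0.17 (adjusted p = 0.0895). The same direction was seen at 3 months, with 2.10 to 2.58 in TBI and 2.44 to 3.43 in sham (-0.65 ± 0.22, adjusted p = 0.85). At 6 months it was the other way, with 3.32 to 4.26 in TBI and 2.19 to 3.62 in sham (0.61 ± 0.28, adjusted p = 1). In the cortex at 6 months, Lpl was 1.70, 3.57, 1.6 and 1.46 in TBI and 0.86, 1.05, 1.13 and 0.56 in sham. It was the only tested member there whose groups did not overlap (1.18 ± 0.39, adjusted p = 0.339), and 4.3% of all tested probes had all TBI arrays above all sham arrays.

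Cst7 encodes cystatin F. It was measured at 24 hr. On the larger design 8 of 96 arrays held it well above background in all, and on the smaller design 9 of 17 did, among them 3 of 4 naive, 1 of 4 sham and 2 of 4 TBI arrays of hippocampus at 3 months. Hippocampal Cst7 at 24 hr, read from a different probe on the smaller design, was 1.39, -0.28 and -0.30 in TBI, all above background, and -1.68 and -1.30 in sham, neither above it. TBI was at least 3.39-fold higher (adjusted p = 0.0774). Cortical Cst7 at 24 hr was 1.47, 0.75, 0.06 and 1.68 in TBI and -2.58, 0.08, -1.82 and 0.49 in sham, where replicates 2 and 4 were the ones above background (1.95 ± 0.60, adjusted p = 0.110). No naive array of the cortex was above background at that interval, and TBI was at least 6.80-fold higher than naive (adjusted p = 0.00728). At 2 weeks no TBI array of either tissue had Cst7 above background.

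**Figure D4:**
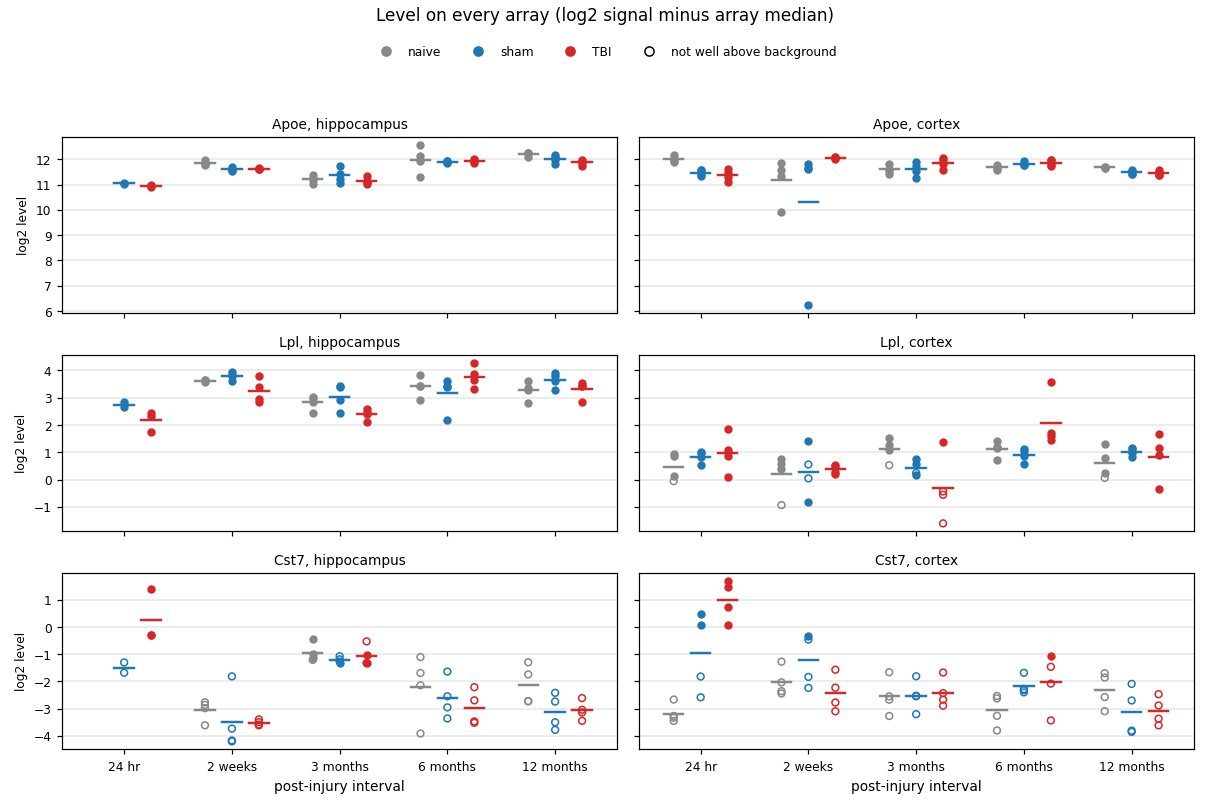
Levels of Apoe, Lpl and Cst7 (log2 relative to the array median) in every array by post-injury interval, for hippocampus and cortex. Apoe lies between 10.9 and 12.6 in all hippocampal arrays, naive arrays at 2 weeks, 6 months and 12 months hold more Lpl in hippocampus than in cortex, and Cst7 is above background in all TBI arrays at 24 hr and, at 3 months, in 6 of 12 hippocampal arrays of the smaller design.

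Persistence was described by the members that still separated TBI from sham. At 3 months 2 of 7 tested members (Spp1 and Clec7a) had all cortical TBI arrays above all sham arrays, and 0.615% of all tested probes did. Both passed the filter through the TBI arrays alone, since no sham array held them above background. Their separation follows largely from that filter and gives no separate support for persistence. In the hippocampus none of 6 did at 3 months (0.302% of all probes). At 6 months 5 of 7 did there (Spp1, Gpnmb, Trem2, Tyrobp and Lgals3), and 7.45% of all probes did. Among these, Spp1 was above background in 1 of 4 sham arrays and passed the filter through the TBI arrays alone. No member was called at either interval. Against naive rats the 6-month arrays overlapped, and none of 7 tested members had all hippocampal TBI arrays above all naive arrays (8.35% of all probes did). Naive means of 6.1 for Trem2 and 7.3 for Tyrobp were above the TBI means of 5.75 and 6.76, with naive replicate 3 far above its group. All 6 members tested between sham and naive there were lower in sham, and none passed (the lowest adjusted p was 0.081, for Lgals3 at -1.06 ± 0.33). Cortical TBI arrays at 6 months differed among themselves. Replicate 4 held 3.86 for Spp1, 2.83 for Clec7a and 5.73 for Gpnmb, and replicate 1 held 0.32, -0.73 and 3.81. Choroid plexus markers moved in that comparison. Folr1, a folate receptor of the choroid plexus, was called higher in TBI (4.27 on the log2 scale, adjusted p = 0.00264), and the summed level of the 7 choroid plexus markers was 244.5 to 1330 in TBI and 102 to 196 in sham, whose part in the result was not tested.

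The change of the injury effect between intervals was tested directly as a difference of differences. From 2 weeks to 12 months 5 of 8 tested members fell in the hippocampus, where 0.75% of all probes fell. On the log2 scale Lgals3 fell by 2.55 (SE 0.55, adjusted p = 0.0293), Gpnmb by 2.13 (SE 0.45, adjusted p = 0.0264), Trem2 by 1.65 (SE 0.32, adjusted p = 0.0136) and Tyrobp by 1.59 (SE 0.31, adjusted p = 0.0165). Clec7a was the fifth (adjusted p = 0.00694), but no sham array at 2 weeks and 1 of 4 TBI arrays at 12 months held it above background, so that the size of its change was not measured. In the cortex Spp1 (adjusted p = 6.52e-05) and Clec7a (adjusted p = 0.0215) were called lower with all arrays, 2 of 8 against 0.149% of all probes. For each of them 1 of 4 sham arrays at 2 weeks was above background, and at 12 months 2 and 1 of 4 TBI arrays were, so that no size is given here either. Without sham replicate 3 there were 6 of 8 (0.918%), which added Gpnmb, Trem2, Tyrobp and Lgals3. Leaving out 1 array at a time left 3 members in the hippocampus without 12-month TBI replicate 1 or 4, 12-month sham replicate 2 or 3, 2-week sham replicate 2 or 2-week TBI replicate 4, and 2 without 12-month sham replicate 4. In the cortex 1 was left without 12-month TBI replicate 1, 3 or 4, 12-month sham replicate 2, 3 or 4, or 2-week TBI replicate 2 or 4. From 2 weeks to 3 months the cortical effect on Spp1 was called lower without that replicate (adjusted p = 0.00204), 1 of 8 members against 0.219% of all probes. No sham array of that fit held Spp1 above background at either interval, and the size was not measured. No member was called with the replicate (6 had an unadjusted p under 0.05). No member was called between 24 hr and 2 weeks or between 2 weeks and 6 months in either tissue, or between 2 weeks and 3 months in the hippocampus. The share of all probes called lower was 8.92% in the hippocampus from 24 hr to 2 weeks and 0.0% in the others. At an unadjusted p under 0.05 these held 1 lower (hippocampus, 24 hr to 2 weeks), 3 higher and 1 lower (cortex, 24 hr to 2 weeks), 4 lower (hippocampus, to 3 months), 1 higher and 1 lower (hippocampus, to 6 months) and 5 lower (cortex, to 6 months).

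The injury effect was not shown to differ between the tissues. The contrast of TBI minus sham in hippocampus against cortex called none of the members in limma at any of the 5 intervals, where 3.18% (24 hr), 0.004% (6 months) and 0.0% (all other intervals) of all probes were called lower in hippocampus. The members with an unadjusted p under 0.05 were 3 lower in hippocampus at 2 weeks (Spp1, Gpnmb and Trem2) and none at the other intervals. Spp1 at 2 weeks had the lowest unadjusted p, with a difference between the tissues of -2.16 ± 0.99 (adjusted p = 0.431) and of -2.34 ± 0.91 without cortex sham replicate 3 (adjusted p = 1). At 2 weeks and 6 months both tissues came from the same rats. With the rat as a block, a fit added after the data had been seen, no member was called at either interval or without that replicate, and 1 (Spp1) and 0 had an unadjusted p under 0.05. At the other intervals only the fit that took the tissues as independent was run.

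Some members also differed between sham and naive rats in the cortex at 24 hr. Against naive arrays, the sham arrays were higher in Spp1 (3.79 ± 1.13, adjusted p = 0.0368) and Lgals3 (2.25 ± 0.65, adjusted p = 0.032), 2 of 7 tested members where 0.953% of all probes were called higher. They were lower in Apoe (-0.52 ± 0.13, adjusted p = 0.0188) and Trem2 (-0.56 ± 0.16, adjusted p = 0.0333), where 18.3% of all probes were called lower. The median log2 difference of all tested probes was -0.20 in that comparison, and the members' differences are not corrected for it. Spp1 passed the filter there through the sham arrays alone, with 2 of 4 naive arrays above background. No member was called when arrays were scaled to their 75th percentile, were quantile normalized, or were tested without the filter. Sham replicates 2 and 4 were the high arrays, with 5.75 and 5.51 for Lgals3 against 3.07 and 3.27 in replicates 1 and 3, and naive arrays of 2.01 to 2.37. Without sham replicate 2 the members called numbered 2, without sham replicate 4 there were 0, and without any 1 of the 4 naive arrays 1 or 2. The same 2 sham arrays had summed microglia and macrophage markers of 685 and 593, against 342.6 and 456.7 in replicates 1 and 3, and summed monocyte and neutrophil markers of 26.4 and 51.2 against 9.75 and 11.9. In the hippocampus at 2 weeks sham arrays were lower than naive in Apoe (-0.24 ± 0.06, adjusted p = 0.0398, 1 of 6 members against 3.11% of all probes called lower), a call lost without any 1 of 7 of the 8 arrays.

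TBI arrays of the cortex at 24 hr differed from naive arrays in 7 of 9 members. Higher were Spp1 (7.68 ± 1.15), Lgals3 (4.57 ± 0.66), Clec7a (4.37 ± 0.72), Cst7, Gpnmb (3.59 ± 0.50) and Tyrobp (1.49 ± 0.31), all at an adjusted p of 0.0115 or lower, where 6.38% of all probes were called higher. Apoe was lower (-0.62 ± 0.13, adjusted p = 0.0114), where 11.1% were called lower. In the hippocampus at 2 weeks the same comparison called 6 of 8 members higher (4.18% of all probes), and Spp1 was among them (3.56 ± 0.87, adjusted p = 0.0232). Without TBI replicate 3 or 4 it called 3. At 2 weeks in the cortex it called Spp1, at least 63.8-fold higher, and Clec7a, at least 24.7-fold higher (2 of 8, 0.124% of all probes), and 1 member without any 1 of the 8 TBI and naive arrays. The median log2 difference of all tested probes was 0.41 there, and the folds are not corrected for it. Spp1 and Clec7a passed the filter there through the TBI arrays alone, since no naive array held them above background. So did Spp1, Clec7a and Cst7 in the cortex at 24 hr, and Spp1 and Clec7a in the hippocampus at 2 weeks. Their part in these counts is not independent of the filter. With sham replicate 3 out of the shared fit, TBI vs naive called 6 of 8 (4.71%). At later intervals no member was called against naive, where the share of all probes called higher was 0.0%, 3.74% and 1.16% for hippocampus and 0.466%, 0.144% and 3.43% for cortex. Of members with an unadjusted p under 0.05 there were 2 higher at 3 months, 1 higher at 6 months and 3 lower at 12 months in the hippocampus, and 3 higher, 4 higher and 2 lower in the cortex. TBI vs sham and TBI vs naive share the TBI arrays, and their counts are not independent. TBI and naive arrays were on separate slides in every comparison of this paragraph, and effects of slide and of injury cannot be told apart in them.

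In naive rats alone the levels of some members differed between tissues and between intervals. Lpl was higher in hippocampus than in cortex at 2 weeks (3.57 to 3.66 against -0.94 to 0.75, a difference of 3.42 ± 0.40, 1 of 6 members against 3.79% of all probes), at 6 months (2.29 ± 0.29, adjusted p = 5.55e-13) and at 12 months (2.67 ± 0.27, adjusted p = 0.000101). At 2 weeks the median difference of all tested probes was 0.44, for which the Lpl difference is not corrected. At 12 months Apoe (0.54 ± 0.09, adjusted p = 0.00169), Trem2 (0.64 ± 0.16, adjusted p = 0.0111) and Tyrobp (0.58 ± 0.14, adjusted p = 0.0109) were also higher in hippocampus, 4 of 7 members where 25.3% of all probes were called higher. At 6 months Gpnmb (0.83 ± 0.29) and Tyrobp (0.86 ± 0.29) were called as well, 3 of 6 members against 4.82% of all probes, with 2 left (Lpl and Tyrobp) when the rat was a block. At 12 months that block called 6 of 7 (28.5% of all probes), adding Spp1 and Gpnmb, and at 2 weeks again 1 (4.28%). With the block every tested member had a standard error of 0.390 at 2 weeks and of 0.317 at 6 months. The 3 members called at 6 months without it shared 0.29. These p-values rest on a spread drawn from all probes and are not the members' own replicate error. At 6 months Lpl and Gpnmb arrays did not overlap between tissues. Tyrobp arrays did, at 5.84 to 9.17 in hippocampus and 6.11 to 7.29 in cortex. At 6 months Lpl was the 1 left without hippocampal replicate 3 or without cortical replicate 1, 2 or 3. Between 2 weeks and 12 months Gpnmb rose in naive hippocampus, from 2.66 to 3.03 up to 3.77 to 3.98 (0.96 ± 0.21, adjusted p = 0.0412, 1 of 6 members against 0.333% of all probes). Without any 1 of these 8 arrays no member was called there. Spp1 rose in naive cortex, where no array was above background at 2 weeks and all 4 were at 12 months, at least 2.13-fold (adjusted p = 0.011, 1 of 6 against 2.05%). The median log2 difference of all tested probes was 0.43 in that comparison, and Spp1 passed its filter through the 12-month arrays alone. No member was called in that comparison without the 12-month replicate 1 or with arrays scaled to their 75th percentile, and 6 and 4 were called without the 2-week replicates 2 and 3. Rats sampled at different intervals differ in age and in slide, and these cannot be told apart. Naive hippocampus and naive cortex were on separate slides scanned on different days at each interval compared, and tissue and slide cannot be told apart either. Naive hippocampus at 6 months held an array with high member levels, replicate 3, at 4.51 for Clec7a, 7.18 for Trem2 and 9.17 for Tyrobp, against highest values of -1.14, 6.37 and 7.36 in the other 3. Its summed microglia and macrophage markers were 3447, against 340 to 818 in those 3.

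The genes around the receptors moved in part with the members. The shares of all probes given above for TBI vs sham are the background for their counts (called higher, 5.55% in the hippocampus at 24 hr, 1.03% there at 2 weeks and 2.13% in the cortex at 2 weeks without sham replicate 3). Of 9 genes that carry signals from TREM2 and CLEC7A to the cell interior, 4 were called higher in the hippocampus at 2 weeks, namely the adaptor Lat2 (1.63), the phosphatase Ptpn6 (1.24), Card9 (1.1) and the phospholipase Plcg2 (0.87, adjusted p = 0.0238). At 24 hr 3 were called there, Vav1 (2.07), Btk (1.52) and Hcst (1.49). In the cortex 0 were called at 24 hr and 0 at 2 weeks with all arrays (6 and 7 past the 1.4-fold rule), and 5 without sham replicate 3, with Vav1 at 2.38 and Hcst at 2.34. No gene of that list was called at 3, 6 or 12 months in either tissue, or past the 1.4-fold rule. Among binding partners and lipoprotein receptors, Cd44, a receptor of osteopontin, was 2.77 higher at 24 hr in the hippocampus (adjusted p = 0.0033), the 1 gene called of 11 tested. At 2 weeks Lgals3bp was called higher there (0.86) and the sorting receptor Sorl1 lower (-0.58, adjusted p = 0.0383). Of 8 tested transcription factors, Spi1 (1.28), Nr1h3 (1.00) and Runx1 (0.87) were called in the hippocampus at 24 hr, and Irf8 (1.65, adjusted p = 0.0255) was the 1 called at 2 weeks.

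Further genes of the disease-associated state and of lipid handling were counted in the same way. At 24 hr in the hippocampus 8 of 20 tested further genes were called higher and 0 lower, led by Ch25h (2.40), Ccl6 (2.34), Ctsz (1.83) and Cd63 (1.58). At 2 weeks 4 of 19 were called there, Cd68 (2.70), Ctsz (1.34), Lyz2 (0.80) and Timp2 (0.51). The scavenger receptor Msr1 (3.84, adjusted p = 0.00686), the lipid droplet protein Plin2 (2.35) and the lysosomal lipase Lipa (0.62) were called at 24 hr in the hippocampus, 3 of 8 lipid genes, and Npc2 (0.97) and Plin2 (0.57) at 2 weeks. In the cortex without sham replicate 3 at 2 weeks Cd68 (3.40), Ctsz (2.16) and Igf1 (1.96) were called of 19 further genes, and Soat1 (1.73) and Npc2 (1.69) of 8 lipid genes. With all arrays no gene of either list was called in the cortex at 2 weeks (8 and 4 were higher by the 1.4-fold rule). Neither list had a called gene at 3, 6 or 12 months in either tissue.

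Genes of homeostatic microglia were not called lower in any of these comparisons. Of all probes, 7.96% and 1.29% were called lower in the hippocampus at 24 hr and 2 weeks. In the cortex 0.00387% were at 24 hr, and 0.0297% at 2 weeks without sham replicate 3. The absence of lower calls in the cortex therefore says little about these genes. At 2 weeks in the hippocampus 4 of 10 were called higher, Csf1r (0.95), Gpr34 (0.70), Tmem119 (0.69) and Cx3cr1 (0.55, adjusted p = 0.0436), and without sham replicate 3 Csf1r (1.68) and Tgfbr1 (1.45) in the cortex. With all arrays none was called in the cortex at 2 weeks, and 6 were higher by the 1.4-fold rule. By that rule 1 was higher and 1 lower in the hippocampus at 24 hr, where 11.2% and 13.6% of all probes were, and 1 higher and 3 lower in the cortex (9.05% and 1.27%). Markers of microglia and macrophages moved with the members at 2 weeks. In the hippocampus 6 of 8 were called higher, with Ptprc at 1.46 and Itgam at 1.26, and their summed level was 444 to 807 in TBI and 313 to 404 in sham. The cortex had 7 of 8 without sham replicate 3, with summed levels of 831 to 1375 in TBI and 17.0 to 439 over the 4 sham arrays, and 0 of 8 with all arrays (8 by the 1.4-fold rule). At 24 hr these markers summed to 604 to 1030 in TBI and 450.5 to 524 in sham in the hippocampus, with 2 of 8 called, and to 698 to 981 and 342.6 to 685 in the cortex, with 0 called and 6 higher by the 1.4-fold rule. At 6 months they summed to 494 to 547 and 406 to 534 in the hippocampus and to 424 to 719 and 318 to 437 in the cortex, with none called. Of 6 monocyte and neutrophil markers on the arrays, S100a8 (3.49) and S100a9 (4.0) were called at 24 hr in the hippocampus, where the list summed to 28.0 to 120 in TBI and 15.3 to 17.4 in sham. In the cortex at 24 hr that list summed to 21.4 to 175 in TBI and 9.75 to 51.2 in sham. At 2 weeks it summed to 11.4 to 15.6 in hippocampal TBI arrays and 11.9 to 17.3 in sham. The part of these cell types in the members' levels was not tested.

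Across the TBI arrays the members varied together, with exceptions. Deviations of each of 32 TBI arrays of the larger design from the sham mean of its tissue and interval were correlated as a description, with intervals and tissues pooled and the cortical sham mean at 2 weeks holding the array that stood apart. Against the mean of the other members Pearson's r was 0.96 for Gpnmb and Lgals3, 0.93 for Tyrobp, 0.91 for Spp1, 0.89 for Clec7a and 0.86 for Trem2. It was 0.65 for Apoe, which fell to 0.09 over the 28 arrays without the cortex at 2 weeks, 0.00 for Lpl and -0.12 for Cst7, which was not above background in most of them and gave 0.4 over the 28 arrays. Among 9808 other genes well above background in all of these arrays, the highest correlations with the mean of the members were those of Myo1f (0.967), Ncf1 (0.962), Casp4 (0.958), Ctsz (0.955) and Ifi30 (0.953), and over 28 arrays they were 0.926 to 0.952.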

How the data were processed

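Hippocampus and cortex RNA was hybridized to Agilent arrays of 2 designs (96 and 17 arrays). The authors deposited spot intensities from Agilent Feature Extraction 11.5.1.1 (version per the file headers), background-subtracted and not normalized between arrays, with flags for spots well above background, and linear intensities scaled by the authors near each array's 75th percentile (median percentile 74.9). The scaled values were used as an alternative.

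Replicate spots were averaged without outlier spots, log2 was taken of the deposited processed intensity, and each array's median was subtracted. RefSeq identifiers named 46.3% and 61.4% of the 45598 and 30367 probes. Each gene was read from its probe of highest mean signal. limma 3.58.1 in R 4.3.3 was fitted to naive, sham and TBI arrays of a tissue and interval together, or to 2 intervals or tissues for differences of differences, with Benjamini-Hochberg adjustment over all tested probes. The filter kept probes that all arrays of either group held well above background. Where no array of a group was above background, a fold is a lower bound against the lowest signal above background. The members and lists were chosen with earlier results of these data known. All members were named, with up to 4 called genes per list. Hippocampus and cortex of a group carried the same deposited animal numbers at 2 weeks and 6 months (naive, sham and TBI, 4 of 4 rats each) and in naive rats at 12 months, and comparisons of tissues were refitted there with the rat as a block. Deviations of same-numbered arrays of both tissues correlated above 0.1 in every pair in 1 of 9 sets (2 weeks, 6 and 12 months). The fit was tested on simulated data. The median log2 difference of TBI minus sham over all tested probes was -0.12 to 0.12 apart from the cortex at 2 weeks, where it was 0.95 with all arrays and 0.01 without sham replicate 3. For TBI minus naive in the cortex at 2 weeks it was 0.41. The number of arrays limits the precision. P-values rest on the spread between rats, which the series describes as biological replicates, together with a spread that limma shares over all probes. That shared spread dominates in the cortex at 2 weeks without sham replicate 3. It also does between naive tissues at 6 months, and at 2 weeks with the rat as a block. Without that block, comparisons of tissues treat both tissues of a rat as independent.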

Additional observations from a re-analysis of the deposited data

Results flagged for a closer look

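Of 212 sets of 4 arrays (a member in a group), 18 held a highest or lowest array that was far from the other 3 relative to the range of the 4. Chance alone gives about 1 in 20. The array that stood apart, cortex sham replicate 3 at 2 weeks, accounted for 5 of them, with levels of 0.19 for Gpnmb (others 3.31 to 3.42), 6.23 for Apoe (11.63 to 11.80), 1.66 for Trem2 (4.79 to 5.24), 1.44 for Tyrobp (5.99 to 6.31) and -5.10 for Lgals3 (2.73 to 3.13).

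In other cortical groups the arrays far from the rest were naive replicate 4 at 6 months for Tyrobp (7.29, others 6.11 to 6.20), TBI replicate 2 at 6 months for Lpl (3.57, others 1.46 to 1.70) and naive replicate 1 at 12 months for Clec7a (-0.078, others -1.34 to -1.20). Sham replicate 2 at 12 months was such an array for Gpnmb (3.68) and sham replicate 3 for Trem2 (4.78). Hippocampal naive replicate 2 at 2 weeks was high for Apoe (11.96) and Tyrobp (6.39), and sham replicate 2 at 2 weeks was low for Lgals3 (1.16). At 6 months sham replicate 3 was low for Lpl (2.19), TBI replicate 4 for Spp1 (0.046) and TBI replicate 1 for Clec7a (-1.90). At 12 months naive replicate 1 was low for Apoe (12.09) and TBI replicate 2 for Lpl (2.84).

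The injury effect differed between 2 weeks and 12 months, by the test of the difference itself in limma, for 5 hippocampal and 2 cortical members. The differences on the log2 scale were -4.47 for Clec7a, -2.13 for Gpnmb, -1.65 for Trem2, -1.59 for Tyrobp and -2.55 for Lgals3 in the hippocampus, and -6.03 for Spp1 and -5.34 for Clec7a in the cortex. The values for Clec7a and Spp1 are fitted on groups in which most arrays at 2 weeks (sham) or 12 months (TBI, 2 of 4 for Spp1) were not above background, and they are no measured sizes.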

How the results depend on the processing

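No called difference of a member changed direction under any alternative that was run. With the authors' own values 1 member result of TBI vs sham lost its call and 1 gained one. The other probes of Clec7a and Lgals3 changed no call where both probes were tested. Without the filter on dim probes, TBI vs sham called 0 members in the hippocampus at 24 hr and at 2 weeks, 7 in the cortex at 24 hr and 5 at 2 weeks. In the same setting TBI vs naive at 2 weeks called 3 (hippocampus) and 1 (cortex), and sham vs naive 0 in the hippocampus at 2 weeks, 1 at 12 months and 0 in the cortex at 24 hr. With only the 2 groups in the fit, TBI vs sham called 0 at 2 weeks in either tissue. That fit is also the within-slide value for the hippocampus at 2 weeks. With normexp background correction TBI vs sham in the cortex called 7 at 24 hr and 3 at 2 weeks. Scaled to the 75th percentile, 5 were called in the cortex at 2 weeks by TBI vs sham and 5 by TBI vs naive, 0 by sham vs naive in the cortex at 24 hr and 2 in the hippocampus at 6 months. In that scaling the cortical effect changed between intervals for 1 (24 hr to 2 weeks), 2 (2 weeks to 3 months) and 5 members (2 weeks to 12 months), and naive cortex between 2 weeks and 12 months for 0. Quantile normalization gave 4 (TBI vs sham) and 5 (TBI vs naive) in the cortex at 2 weeks, and for sham vs naive 0 in the cortex at 24 hr, 0 in the hippocampus at 2 weeks and 2 at 6 months. The causes were not tested.

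Same-numbered arrays of TBI and sham deviated together in every pair in 0 of 10 comparisons, so that these numbers do not pair TBI with sham. With the replicate block, TBI vs sham called 1 in the hippocampus at 24 hr and 1 at 2 weeks, TBI vs naive 1 in the cortex at 2 weeks, sham vs naive in the hippocampus 0 at 2 weeks and 2 at 6 months, and naive hippocampus between 2 weeks and 12 months 0. The rat as a block between tissues, added after the data had been seen, changed no call of TBI minus sham.

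Leaving out 1 array at a time gave these lowest and highest counts. TBI vs sham called 1 to 3 in the hippocampus at 24 hr, 0 to 7 at 2 weeks, and in the cortex 0 to 3 at 24 hr, 1 to 6 at 2 weeks, and 0 to 1 at 3 and at 6 months. By the 1.4-fold rule the range was 0 to 1 at 12 months in both tissues. TBI vs naive called 3 to 7 in the hippocampus at 2 weeks, 0 to 1 at 12 months (1 without naive replicate 2), 1 to 1 in the cortex at 2 weeks and 0 to 1 at 6 months (1 without TBI replicate 1). Sham vs naive called 0 to 1 in the hippocampus at 2 weeks, 0 to 2 at 6 months and 0 to 1 at 12 months (highest without naive replicate 2 at both), and 0 to 5 in the cortex at 24 hr. Between intervals the hippocampal effect changed for 0 to 1 members from 24 hr to 2 weeks (1 without 2-week TBI replicate 3), 0 to 1 from 2 weeks to 3 months (1 without 2-week TBI replicate 2) and 2 to 6 to 12 months. The cortical effect changed for 0 to 1 from 2 weeks to 3 months (1 without 3-month TBI replicate 2 or 2-week sham replicate 3) and 1 to 6 to 12 months. In naive rats the ranges were 0 to 0 for hippocampus and 0 to 6 for cortex between 2 weeks and 12 months, and 1 to 4 between tissues at 6 months.

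The slide as a block was not run, because each group lay on 1 slide. Members not well above background (Clec7a on the smaller design, Cst7 in most arrays after 24 hr) have no measured level there.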
